A study of Mus musculus with 6 samples.

Results

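TRIM genes encode tripartite-motif proteins, most of them ubiquitin ligases, and their messenger RNA was followed in embryonic mouse hearts. Members were taken by name, as every gene whose symbol is Trim followed by a digit and that at least 1 probe set names alone. This gave 58 members among 18193 genes measured. Where several probe sets measured a member, the one of highest mean signal over the 6 arrays stood for it, so mean levels entered the choice and the difference between the groups did not. Of the 58 members, 38 lay above the filter on low signal, a mean log2 signal of 5.90 below which the lowest 40% of probe sets fall, and were tested together with all 12416 genes above it. The other 20 members are given as values with no test. RefSeq lists 69 such symbols for mouse, and 11 of them, among them Trim55 and Trim58, are not analysed here because no probe set names them alone.

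A TRIM protein usually carries a RING finger, which recruits the ubiquitin-conjugating enzyme, followed by B-box zinc fingers and a coiled coil, while the domain at its far end differs between members and picks the target. In striated muscle the family includes the muscle RING-finger proteins MuRF1 (Trim63), MuRF2 (Trim55) and MuRF3 (Trim54), which sit on the sarcomere and on microtubules and mark muscle proteins for degradation, and MG53 (Trim72), which helps to repair the muscle cell membrane. Other members act in innate immunity, in transcriptional repression, in red cell maturation and in stem cells.

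The hearts were taken at stage E12.5 from mice of the C57BL/6 strain. Of the 6 arrays, 3 carry the label wildtype and 3 the label Rhau KO, meaning hearts in which Rhau, an older name of the G-quadruplex helicase gene Dhx36, was deleted. The sources used here do not say how, or in which cells, the gene was deleted. The series design counts 3 hearts and 3 RNA samples for each label, but does not state that each array holds 1 heart. Each p-value rests on the variation among 3 arrays per label, which the test draws toward that of other genes of similar signal. That variation may be technical.

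Some facts of the whole series bear on every value below. Dhx36 signal was 8.99, 8.88 and 8.71 on the arrays labelled wildtype and 10.10, 10.48 and 10.23 on those labelled Rhau KO, so the targeted gene ran against the labels, and every direction below is that of the labels as deposited. Signal is log2 of the authors' MAS5 value, and precision is limited by how few arrays there are. All 8 cardiomyocyte markers listed to check the tissue label were above the filter. With the highest array set to 100%, signal of Y-linked genes was 1.23, 2.04 and 39.3 on the arrays labelled wildtype and 59.6, 82.8 and 100 on those labelled Rhau KO, and Xist ran from 77.2 to 100 and from 0.232 to 61.1. Both kinds of signal were present on replicate 3 of the wildtype label and on replicates 1 and 2 of the Rhau KO label, which cells of 1 embryo normally do not. Whether hearts or RNA were pooled or mixed was not tested, so 3 arrays per label may not stand for 3 independent hearts. The sex-linked signal moves with the labels; the fits that take it into account are given beside the results.

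The start sites of 3 members are shown first, because these genes fell in the arrays with the Rhau KO label and belong to the muscle and red cell parts of the family. Each line is RefSeq sequence of build GRCm38.p6 from 250 bases before to 50 bases after the annotated start. Capitals mark matches, on either strand, to the E-box CAGCTG bound by muscle bHLH factors, the TEAD site CATTCC of muscle promoters and the erythroid GATA site AGATAA.

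Trim54, chr5:31116362-31116661, plus strand: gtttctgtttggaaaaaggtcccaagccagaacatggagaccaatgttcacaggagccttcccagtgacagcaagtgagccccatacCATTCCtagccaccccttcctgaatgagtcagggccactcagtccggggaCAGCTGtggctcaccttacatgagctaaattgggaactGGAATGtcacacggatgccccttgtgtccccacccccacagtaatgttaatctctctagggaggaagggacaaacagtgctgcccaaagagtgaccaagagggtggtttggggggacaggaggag

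Trim63, chr4:134314870-134315169, plus strand: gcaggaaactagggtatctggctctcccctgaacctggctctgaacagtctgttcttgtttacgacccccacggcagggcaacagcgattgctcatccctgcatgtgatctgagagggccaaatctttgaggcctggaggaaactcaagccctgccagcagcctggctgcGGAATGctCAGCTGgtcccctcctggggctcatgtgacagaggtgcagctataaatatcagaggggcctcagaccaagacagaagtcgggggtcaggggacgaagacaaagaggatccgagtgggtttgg

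Trim10, chr17:36869324-36869623, plus strand: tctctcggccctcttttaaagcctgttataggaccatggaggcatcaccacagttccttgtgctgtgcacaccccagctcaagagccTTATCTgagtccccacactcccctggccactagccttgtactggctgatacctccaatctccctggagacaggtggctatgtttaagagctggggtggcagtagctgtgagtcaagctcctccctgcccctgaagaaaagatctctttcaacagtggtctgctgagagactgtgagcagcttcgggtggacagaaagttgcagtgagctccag

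The Trim54 and Trim63 promoters each held 1 CAGCTG, and they held 2 and 1 CATTCC. The Trim10 promoter held 1 AGATAA. Among all 32851 RefSeq promoters of 300 bases, 16.3% held CAGCTG, 14.7% CATTCC, 11.2% AGATAA and 2.57% both of the first 2. A joint share was taken for that pair alone, the pair held by Trim54 and Trim63, so it is no test of those promoters. None of the 3 windows held the NKX2-5 site TNAAGTG (11.5% of all promoters), a MEF2 site (3.19%), a CArG box (1.63%) or a G-quadruplex pattern of 4 runs of GGG spaced by 1 to 7 bases N (18.5%), and no 2 different motifs overlapped in them. All 11 members past the test had a RefSeq promoter, 15 in all because Trim2 has 5, and 8 of these were at members that rose and 7 at members that fell. CAGCTG was in 4 of the 8 (3 of Trim2 and that of Trim12a) and in 3 of the 7 (Trim32, Trim54 and Trim63). CATTCC was in 0 of the 8 and 2 of the 7, AGATAA in 0 and 1, and the G-quadruplex pattern in 2 (both of Trim2) and 1 (Trim56). A match is a run of letters and no measurement of binding.

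Across the family, 7 members fell and 4 rose in the arrays labelled Rhau KO, and 27 of the 38 tested did not pass. The 7 were Trim54, Trim10, Trim45, Trim32, Trim56, Trim63 and Trim41, and the 4 were Trim12a, Trim62, Trim2 and Trim27, each by its brightest probe set. The test was limma's moderated test on all 12416 genes two-sided, with p-values adjusted by Benjamini-Hochberg and called under 0.05, and every adjusted p below is from it. Members passed in 28.9% of cases, where 19.0% of all genes tested did (8.2% higher and 10.8% lower). The median difference was -0.02 over the 38 members and 0.01 over all genes. Decreases of at least 2-fold, with a call, were found for 3 members, and for 0.757% of all genes. Groups did not overlap for 15 members, 39.5%, against 37.1% of all genes; 6 of the 15 were higher and 9 lower, against 18.4% and 18.7% of all genes. With each array centred on its median, which lowers the median difference of all genes from 0.01 to -0.06, the family had 1 member higher and 8 lower, and all genes had 532 higher and 1846 lower in place of 1018 and 1336. With quantile normalization the family had 2 higher and 8 lower.

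**Figure D1:**
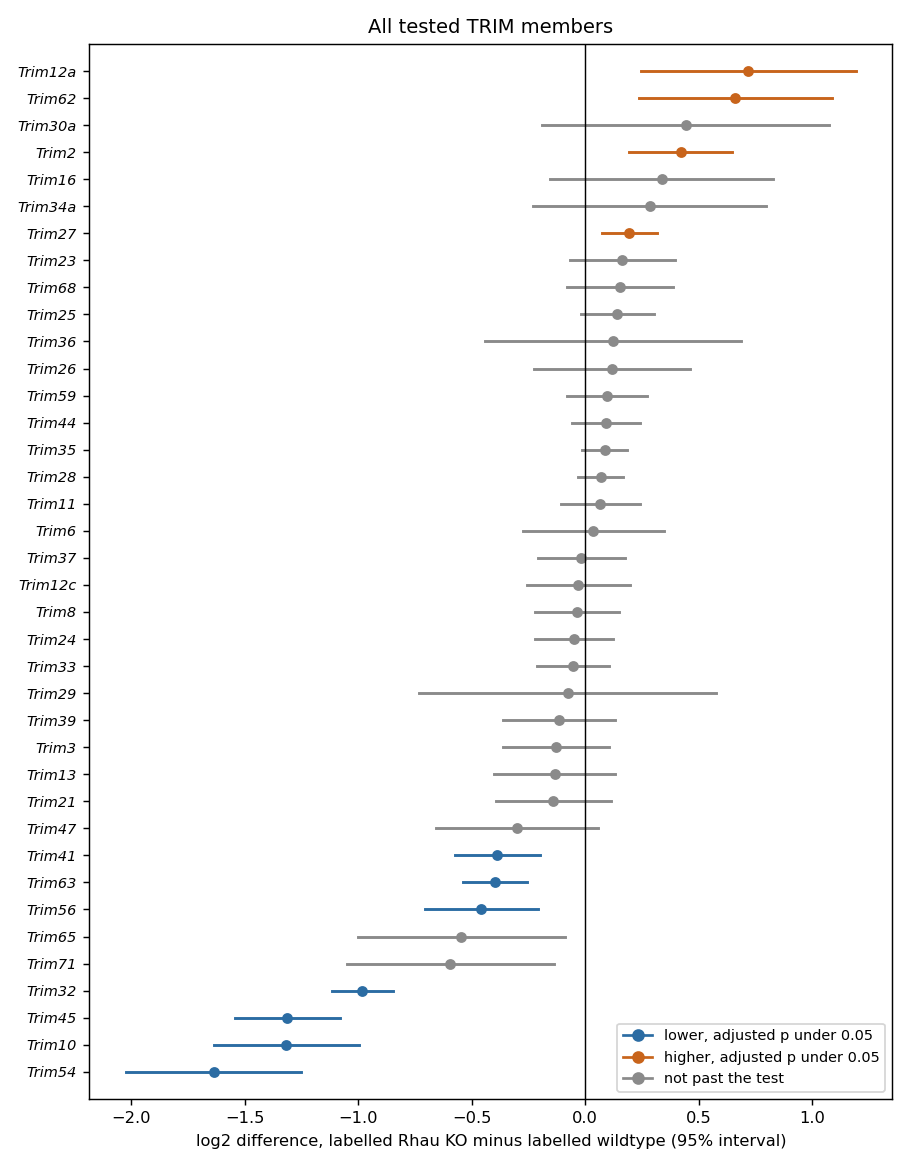
Log2 differences (labelled Rhau KO minus labelled wildtype) of the 38 tested TRIM members, each with its 95% interval from limma, ordered by size. Blue and orange points passed the test; Trim54 lies lowest at -1.64 and Trim12a highest at 0.72, and 21 of the 27 grey points lie within 0.2 of 0.

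Trim54 (MuRF3), a sarcomere and microtubule protein of striated muscle, had the largest difference among the tested members. Its signal was 9.72, 9.12 and 9.18 on replicates 1 to 3 labelled wildtype and 7.65, 7.48 and 7.98 on those labelled Rhau KO. All of the second group lay below all of the first, by more than the spread within either. The difference was -1.64 (SE 0.175), which is 3.11-fold, and its adjusted p was 1.46e-04. Leaving out any 1 array kept the call. A single probe set measured Trim54. On the 3 arrays that carry both sex-linked signals the difference was -1.61 with adjusted p = 4.82e-04, where the wildtype label keeps 1 array that is assumed to vary like the others. With Y-linked signal in the fit as a covariate it was also -1.61, but its SE grew to 0.401 and the call was lost (adjusted p = 0.0971).

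Trim63 (MuRF1), the ligase that drives breakdown of myosin and troponin in wasting muscle, fell much less. Signal was 12.40, 12.44 and 12.31 on the wildtype-labelled arrays and 12.01, 12.09 and 11.86 on the Rhau KO-labelled arrays. The groups did not overlap. This is a difference of -0.39 (SE 0.0637), or 1.31-fold, with adjusted p = 0.00192, and it too was called whichever array was left out. Unlike for Trim54, the size shrank when sex-linked signal was taken into account, to -0.19 with the covariate (adjusted p = 0.542) and to -0.26 on the 3 arrays with both signals (adjusted p = 0.154), without a call in either. Whether the Trim54 and Trim63 differences differ from each other was not tested.

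Trim72 (MG53), the membrane repair protein, was not measurable above the filter. Signal was 2.70, 4.84 and 1.68 on the wildtype-labelled arrays and 2.34, 2.39 and 4.93 on the Rhau KO-labelled arrays. Both groups ranged over more than 2 log2 units and overlapped throughout, and the difference of 0.15 had an SE of 1.03 in a fit with no filter. Nothing can be read on Trim72 from these arrays.

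**Figure D2:**
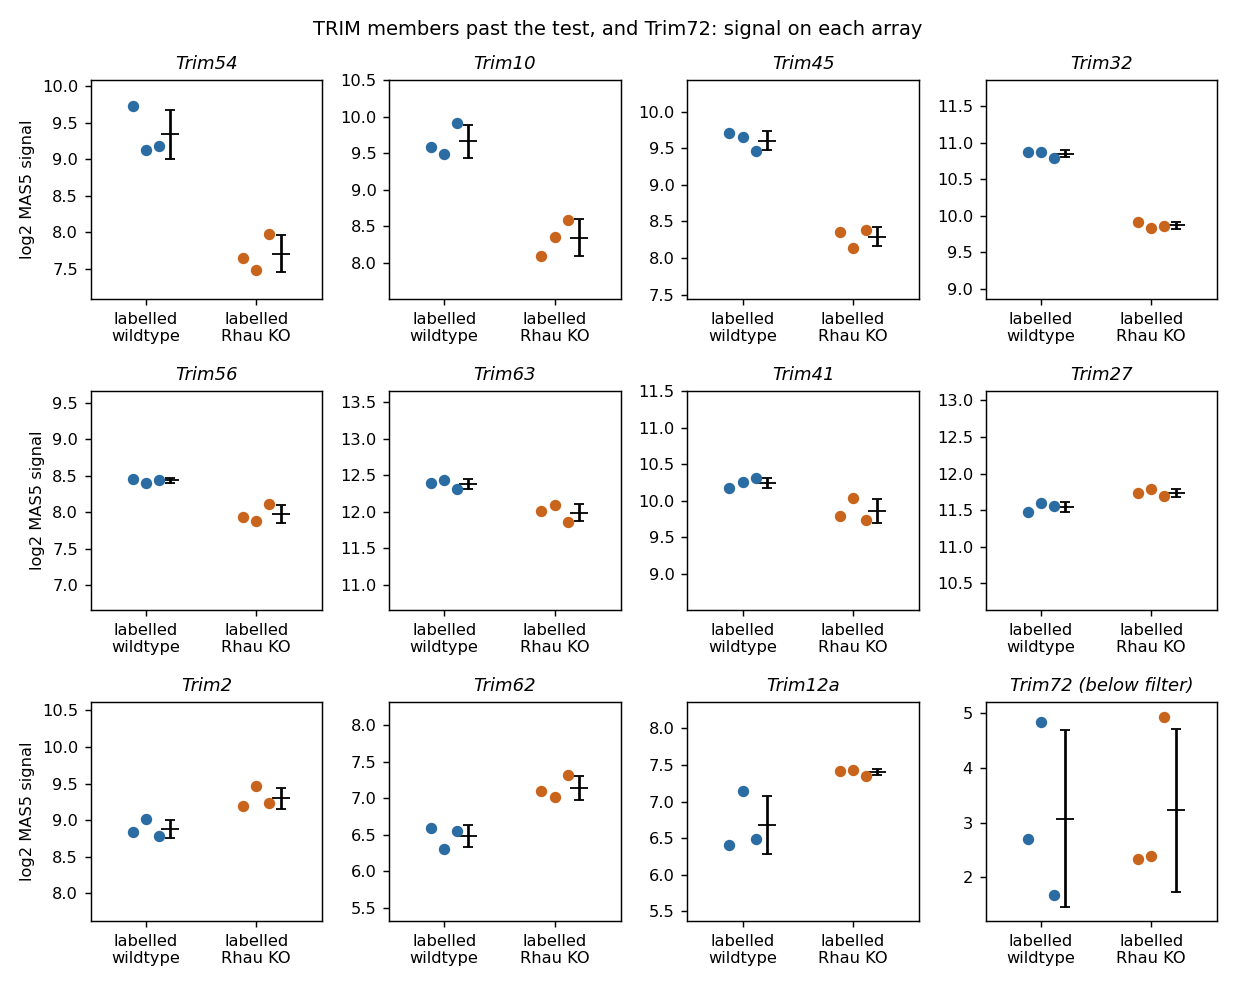
Log2 MAS5 signal on each array for the 11 TRIM members past the test, ordered by difference, and for Trim72, with mean and SD (n = 3) as black bars. Axes span 3 log2 units (4 for Trim72) and start at different levels; the groups stand apart in the first 11 panels and overlap for Trim72.

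Trim32 had the tightest groups of the members past the test. This NHL-repeat ligase, whose loss causes a limb-girdle muscular dystrophy in people, was at 10.88, 10.88 and 10.79 on the wildtype-labelled arrays and 9.92, 9.83 and 9.86 on the Rhau KO-labelled arrays. The gap between the groups was many times the SD of 0.051 and 0.0485 within them. Its difference of -0.98 (SE 0.0606), which is 1.97-fold, had adjusted p = 4.88e-06. Every alternative kept this call, with differences from -1.05 to -0.85 and adjusted p from 2.15e-06 to 0.0149.

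Trim45, a RING protein with a filamin repeat that dampens MAP kinase signalling, fell as well. Its values were 9.71, 9.65 and 9.46 on the wildtype-labelled arrays and 8.36, 8.14 and 8.39 on the Rhau KO-labelled arrays, with no overlap. Its difference was -1.31 (SE 0.104), or 2.48-fold, with adjusted p = 1.98e-05, and leaving out any array kept it. The only Trim45 probe set is of the kind marked by its suffix as shared with other transcripts, so signal from another transcript cannot be told apart. With the Y-linked covariate it stood at -1.11, just short of a call (adjusted p = 0.0501).

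Trim10, a ligase of maturing red cells also known as HERF1, was at 9.58, 9.49 and 9.92 on the wildtype-labelled arrays and at 8.09, 8.35 and 8.59 on the Rhau KO-labelled arrays. The groups stood more than a log2 unit of mean signal apart. The difference was -1.32 (SE 0.144), a 2.49-fold decrease whose adjusted p was 1.78e-04. Erythroid markers moved with it: of 10 listed, 8 were measured, all 8 were above the filter and all 8 fell, with a median of -1.10, between -1.57 and -0.39. Their summed linear signal ran from 35230 to 40864 on the arrays labelled wildtype and from 20220 to 27775 on those labelled Rhau KO, and none was at 0 on any array. Alas2, the first enzyme of erythroid heme synthesis, and the membrane protein gene Slc4a1 were at -1.39 and -1.27. In whole hearts, fewer red cells and less RNA per red cell cannot be told apart, and the part of red cell content in the Trim10 value was not tested. With the Y-linked covariate Trim10 stood at -2.07 and on the 3 arrays with both signals at -1.70, called in both (adjusted p = 0.0013 and 8.7e-05).

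Skeletal and heart muscle markers were read beside Trim54 in the same way. Of 10 skeletal muscle markers measured, 5 were above the filter, with a median of -0.32. Tnnt3 (-3.89) and Tnni2 (-0.89), fast troponin genes, fell, while Myh3 (0.63), Mylpf (-0.32) and Actn3 (-0.21) did not pass. Tnnc2, also a fast troponin gene, lay below the filter, at means of 4.69 (wildtype label) and 5.10 (Rhau KO label). Myh3, Mylpf, Actn3 and Tnnc2 are named after their values were seen. The summed signal of the 10 ran from 4900 to 5682 on the wildtype-labelled arrays and from 2006 to 2671 on the Rhau KO-labelled arrays. Without Tnnt3 alone the sum ran from 3031 to 3515 and from 1899 to 2470, and the groups did not overlap. Without Tnnt3 and Tnni2 it ran from 722 to 853 and from 600 to 1012, and the groups overlapped. Leaving out exactly the markers that fell makes such an overlap likely beforehand. The defining regulators of skeletal muscle, Myod1, Myog, Myf5 and Myf6, lay below the filter, and Myf5 was at 0 on replicates 1 and 2 of the wildtype label. In that order their differences were -0.43, 0.63, 2.51 and 0.98, with overlapping groups and no test. Of 8 cardiomyocyte markers 4 fell and 4 did not pass, with a median of -0.17. Nkx2-5, the heart transcription factor, was at -1.29 and Myh6, the atrial and adult ventricular myosin, at -0.35. The summed signal of the 8 ran from 201099 to 210975 and from 173515 to 196395. Without Nkx2-5 alone it ran from 196700 to 206285 and from 171695 to 194384, which do not overlap. Without the 4 that fell it ran from 119268 to 123374 and from 109576 to 125443, which overlap, with the same limit. The part of either cell type in the Trim54 value was not tested.

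**Figure D3:**
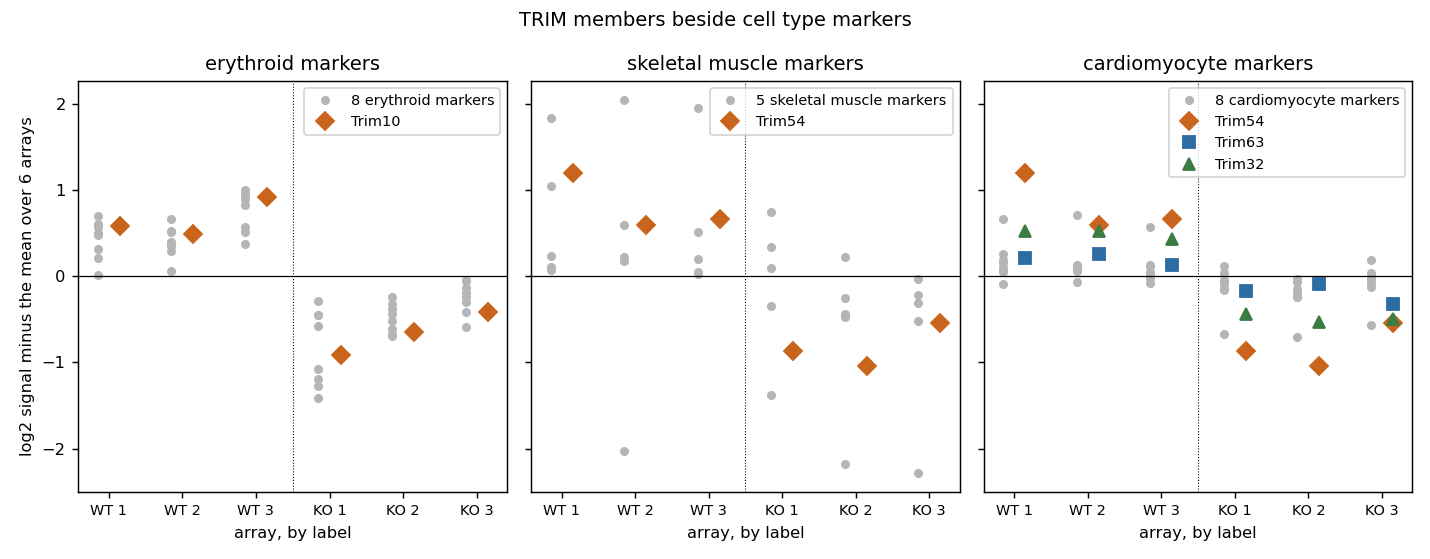
Log2 signal minus its mean over the 6 arrays, for each array by label. Grey points are the erythroid, skeletal muscle and cardiomyocyte markers above the filter, and coloured points are Trim10, Trim54, Trim63 and Trim32. Trim10, Trim54, Trim63 and Trim32 each lie within the range of the 5 skeletal muscle markers on all 6 arrays, so that range does not set them apart. Trim10 and Trim32 lie within the range of the 8 erythroid markers on all 6, Trim54 on 4 and Trim63 on 3. For the 8 cardiomyocyte markers, Trim63 and Trim32 lie within the range on all 6, Trim10 on 4 and Trim54 on 2.

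Trim56, a ligase of antiviral signalling, and Trim41, which binds protein kinase C, were the remaining members with a decrease. Trim56 was between 8.40 and 8.46 on the wildtype-labelled arrays and between 7.88 and 8.11 on the Rhau KO-labelled arrays, a difference of -0.46 (SE 0.112) with adjusted p = 0.0174. That call was lost without replicate 1 or 3 labelled wildtype (-0.44 and -0.46) or replicate 2 labelled Rhau KO (-0.41), each time at an adjusted p between 0.0509 and 0.0595. The brightest Trim41 probe set was at 10.18, 10.26 and 10.31 and at 9.79, 10.04 and 9.74, a difference of -0.39 (SE 0.0853) with adjusted p = 0.0106. It is marked as shared with other transcripts. The other Trim41 probe set, which is not so marked, pointed the opposite way at 0.21 with no call (adjusted p = 0.303), so no direction for Trim41 holds across its probe sets.

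The 4 increases lay between 0.20 and 0.72, and none kept its call in all 6 fits that leave out an array. Trim12a, a rodent relative of the retroviral restriction factor Trim5, was at 6.41, 7.14 and 6.49 on the wildtype-labelled arrays and at 7.42, 7.43 and 7.35 on the Rhau KO-labelled arrays. The wildtype values were spread over more than the gap between the groups. The difference was 0.72 (SE 0.215) with adjusted p = 0.0399, and it was called in 1 of the 6 fits that leave out an array, the one without replicate 2 labelled wildtype, the highest of its group. Trim62, linked to epithelial polarity, ran from 6.31 to 6.59 and from 7.01 to 7.32. It differed by 0.66 (SE 0.192) with adjusted p = 0.0355, and that call was lost without any 1 of the 6 arrays (0.57 to 0.73). These 2 members also lost the call when no filter was applied.

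Trim2, which degrades neurofilament light chain in neurons, was at 8.84, 9.01 and 8.78 on the wildtype-labelled arrays and at 9.19, 9.47 and 9.24 on the Rhau KO-labelled arrays. The difference was 0.42 (SE 0.102) with adjusted p = 0.0165. Its brightest probe set is of the kind marked by its suffix as open to cross-hybridisation. Of its other probe sets, 3 lay above the filter, at 0.36, 0.34 and 0.12, and 2 below it, at 0.43 and 1.16. All 6 thus pointed up, and the call was lost without replicate 1 or 3 labelled wildtype (0.40 and 0.37) or replicate 2 labelled Rhau KO (0.34). Trim27, known as the RET finger protein, showed the smallest difference with a call, from 11.54 ± 0.07 to 11.73 ± 0.05 (mean ± SD, n = 3 each), or 0.20 (SE 0.054) with adjusted p = 0.0298. That probe set is also marked as shared, and the brightest one that is not stood at -0.15 without a call. The other Trim27 probe sets pointed up without a call. Those above the filter, at 0.07 and 0.16, are marked as shared, and those below it, at 0.18 and 0.56, are not. The Trim27 call was lost without replicate 1 or 3 labelled wildtype (0.16 and 0.20) or replicate 1 or 2 labelled Rhau KO (0.20 and 0.17).

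**Figure D4:**
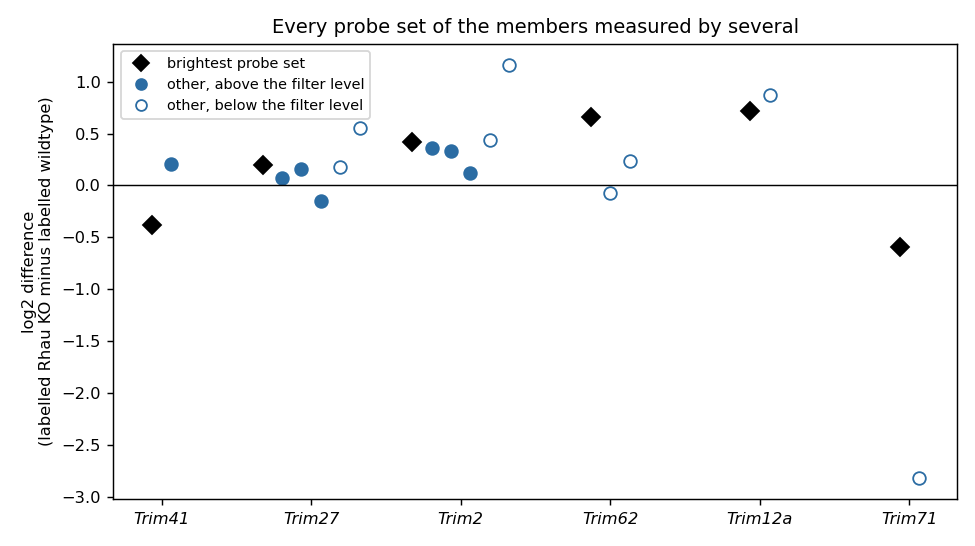
Log2 difference of every probe set naming 1 gene, for the 5 members past the test that several probe sets measure and for Trim71. Black diamonds are the brightest probe set, filled circles others above the filter and open circles others below it; the 2 Trim41 probe sets above the filter lie at -0.39 and 0.21.

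Of the 11 members past the test, 6 are measured by 1 probe set and 5 by several. Testing each of 22796 probe sets on its own kept the call for the brightest probe set of all 11. None of the 28 other probe sets of TRIM members above the filter passed limma there (0 higher and 0 lower, against 7 higher and 0 lower at an unadjusted p under 0.05). Of the 7 others that belong to members past the test, 5 pointed the same way as the brightest one.

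Grouped by the domain at the far end, the muscle RING-finger class with a COS box had both measured members, Trim54 and Trim63, lower. The NHL-repeat class had 1 higher (Trim2) and 1 lower (Trim32) of 4. Trim71, the stem cell protein LIN41 of the same class, had a difference of -0.59 (SE 0.207) with adjusted p = 0.0705. Its values were 7.20, 7.92 and 7.80 against 7.24, 6.96 and 6.93, and replicate 1 of the wildtype label lay within the range of the other group. A second Trim71 probe set below the filter was at 5.15, 5.47 and 6.23 and at 3.39, 3.06 and 1.93. Those groups do not overlap, and this probe set was singled out after its values were seen. Trim3, the remaining NHL member, was at -0.13 with no overlap and no call.

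The class with a PHD finger and bromodomain, chromatin regulators of the TIF1 type, had 0 called of 3 tested. By the brightest probe sets its differences lay between -0.05 and 0.07. Trim28 (KAP1), the corepressor recruited by KRAB zinc finger proteins, was at 12.39 ± 0.0063 and at 12.45 ± 0.05 (mean ± SD, n = 3 each). The groups did not overlap, yet the difference of 0.07 (95% interval -0.03 to 0.17) did not pass.  Trim24 and Trim33 stood at -0.05 each. Their other probe sets above the filter pointed up without a call, at 0.12 and 0.64 for Trim24 and at 0.17 for Trim33. The groups did not overlap for that Trim33 probe set.

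Single members stood for several other classes, none with a call. Trim59, with a transmembrane tail, was at 0.10 (adjusted p = 0.434), Trim23, with an ARF domain, at 0.16 (adjusted p = 0.315), Trim37, the MATH-domain ligase of mulibrey nanism, at -0.02 (adjusted p = 0.921) and Trim36, of the COS and FN3 class, at 0.12 (adjusted p = 0.785). The other Trim37 probe sets pointed up, at 0.33, 0.06, 0.06 and 0.31, none with a call. Among 4 tested members with no further known domain, Trim56 was the one called. The remaining 32 members, most of which end in a PRY-SPRY domain, had 19 tested, with a median of 0.09. Of these 19, 3 rose (Trim12a, Trim62 and Trim27) and 2 fell (Trim10 and Trim41). The directions of Trim27 and Trim41 are those of the brightest probe set. They turn with the brightest probe set not marked as shared. Trim65 in that group was at -0.55 with no overlap, but not past the test (adjusted p = 0.0917). Its values were 6.66, 7.03 and 6.76 and 6.24, 6.30 and 6.27.

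The 27 tested members without a call ran from -0.59 (Trim71) to 0.44 (Trim30a), and 21 of them lay within 0.2 of 0. The median half-width of their 95% intervals was 0.23. These intervals are unadjusted while a call needed an adjusted p under 0.05, so changes of that size and larger could have gone undetected. Groups did not overlap for 4 of the 27, Trim3, Trim28, Trim35 and Trim65. Over all 12416 genes tested, groups did not overlap for 4609 and 2354 were called, so groups apart without a call were common. Trim3, Trim6, Trim24, Trim26, Trim33, Trim34a, Trim35, Trim65, Trim71, Trim12c and Trim46 are named after their values were seen. Trim30a lay just above the filter at a mean of 6.03, and Trim67 just below it at 5.70.

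The 20 members below the filter had mean signals from 2.12 to 5.70 and differences from -1.77 to 1.52. Their median SD within a group was 0.60 on the wildtype-labelled arrays and 0.82 on the Rhau KO-labelled arrays, against 0.10 and 0.14 for the 38 members above it. Groups overlapped for all of the 20 but Trim46, a neuronal microtubule organiser, at 6.46, 5.40 and 5.80 against 3.41, 3.59 and 5.36.

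Several members lie side by side in the genome, by the order of protein-coding genes in RefSeq. Trim26, Trim15, Trim10, Trim40 and Trim31 follow one another with 0 other protein-coding genes between. Of these, Trim10 fell, Trim26 was at 0.12 without a call, and Trim15, Trim40 and Trim31 lay below the filter. In the run Trim6, Trim34a, Trim5 and Trim12a, the call was for Trim12a, with Trim6 at 0.04, Trim34a at 0.29 and Trim5 below the filter. Its close relative Trim12c stood at -0.03.

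Genes that work with the muscle TRIM proteins had 1 member higher and 6 lower of 21 tested, with a median of -0.12. This is a called share of 33.3% beside 19.0% of all genes. Myom2, an M-band protein near the titin site where MuRF1 binds, was 4.76-fold lower, and the muscle creatine kinase gene Ckm was 2.06-fold lower. Myom1, also an M-band protein gene and of higher signal (means of 12.82 and 12.69), was at -0.12 without a call (adjusted p = 0.0911). Fbxo30, a ubiquitin ligase of muscle wasting, was at -0.53, and the other genes that fell were Srf (-0.42), Cav3 (-0.37) and Tnni3 (-0.26). Fhl2, a LIM protein that MuRF3 binds, rose by 0.46. Fbxo32, the atrogin ligase that acts beside MuRF1 in wasting muscle, was at -0.21 (adjusted p = 0.0861), the titin gene Ttn at -0.07 (adjusted p = 0.284) and Foxo1 and Foxo3, which switch both ligases on, at 0.22 and -0.36, all without a call. Myom1, Srf, Cav3, Tnni3, Ttn, Fbxo32, Foxo1 and Foxo3 are named after their values were seen. Saturation of bright probe sets such as those of Ttn was not tested. Another setting moved Myom2: averaging all of its probe sets gave -1.40 without a call (adjusted p = 0.0508).

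Of 8 TRIM-like genes under other symbols, 6 were tested and Cmya5, the muscle protein myospryn, fell by 0.67 (SE 0.0905; adjusted p = 6.5e-04). The other 5, Mid1, Mid2, Pml, Mefv and Rnf207, did not pass, with differences from -0.08 to 0.67.

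Marker lists of other cell types were read in the same way, beside the 19.0% of all genes called. Of 9 macrophage markers 2 rose, 22.2%, with a median of 0.29. These were Lyz2 at 2.98 and Mrc1 at 0.43, and the other 7 ran from -0.10 (Cx3cr1) to 0.38 without a call. The summed macrophage signal ran from 2630 to 2875 on the wildtype-labelled arrays and from 3644 to 4467 on the Rhau KO-labelled arrays, but without Lyz2 it ran from 2465 to 2718 and from 2525 to 3129, so the groups overlapped. Of 6 endothelial markers 3 rose (Kdr at 0.63, Cdh5 at 0.50 and Tie1 at 0.34), with a median of 0.23 and the other 3 between -0.03 and 0.12. The endothelial sum ran from 8051 to 8934 and from 9263 to 9942, and without Kdr from 7237 to 8326 and from 8072 to 8899, which overlap. Of 4 tested neural markers Elavl4 (0.63) and Gap43 (0.32) rose, while Stmn2 at 0.35 and Tubb3 at -0.38 did not pass, and the median was 0.33. The neural sum ran from 985 to 1091 and from 1205 to 1242, and without Elavl4 from 863 to 1000 and from 1028 to 1080, which do not overlap. Of 4 tested epithelial markers Krt8 (-0.55) and Krt18 (-0.41) fell, and Epcam (-0.74) and Ttr (-0.41) did not pass, with a median of -0.48. The epithelial sum ran from 2343 to 2400 and from 1646 to 1875, and without Epcam from 2217 to 2293 and from 1554 to 1821, which do not overlap. No marker of these 4 lists was at 0 on any array. Cx3cr1, Stmn2, Tubb3, Epcam and Ttr are named after their values were seen. The part of these cells in the increases of Trim12a, Trim62, Trim2 and Trim27 and in the decreases was not tested.

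With Y-linked signal in the fit as a covariate, Trim10 and Trim32 kept their calls and the other 9 members lost them. SEs grew under that fit, because the covariate follows the labels, and all 11 kept their direction. On the 3 arrays with both signals, Trim54, Trim10, Trim45 and Trim32 were called. The 4 increases stood at 0.93 for Trim12a, 0.50 for Trim62, 0.55 for Trim2 and 0.21 for Trim27 there, none with a call.

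**Figure D5:**
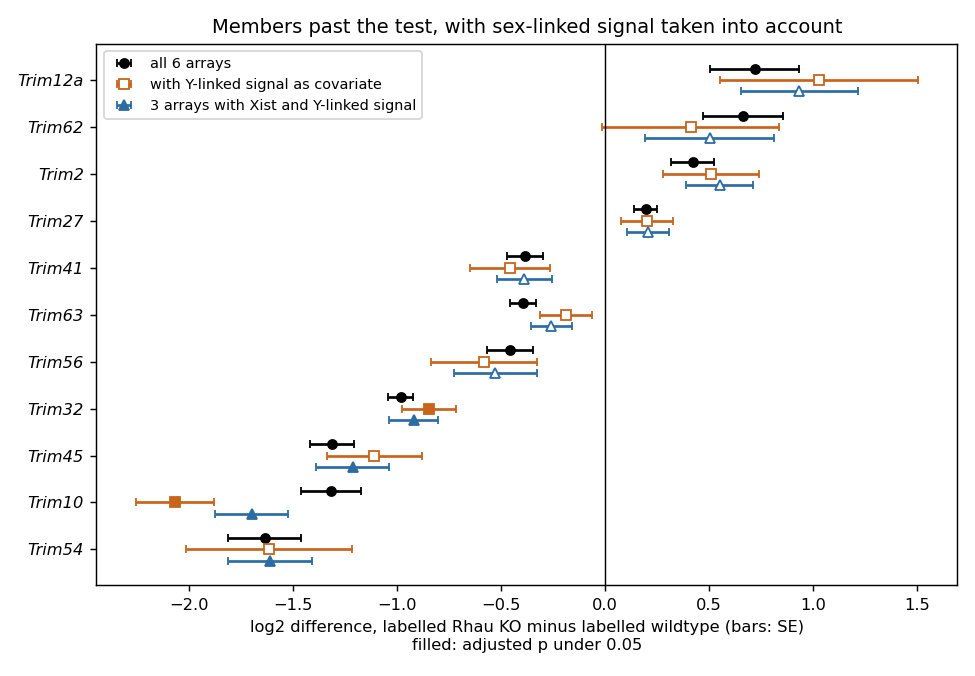
Log2 difference with its SE for the 11 members past the test in all 6 arrays (black), with Y-linked signal in the fit as a covariate (orange) and on the 3 arrays where Xist and Y-linked signal coexist (blue); filled symbols have an adjusted p under 0.05. Trim10 and Trim32 are filled under all 3 fits, and no member changes direction.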

How the data were processed

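Expression was measured in 6 embryonic heart samples on Affymetrix arrays, whose biotin-labelled RNA is read near its 3' end, per the labels' protocols. Values in the table the authors deposited are log2 MAS5 signals, the method per the submitters' processing notes, with its version not given in the sources used here. On the linear scale each array has a 2% trimmed mean of 500, so the authors scaled the arrays globally. Values were used as deposited, with no pseudocount, and detection calls were not used here.

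Of 45101 probe sets, 64 controls were left out; 34945 name 1 gene, 932 several and 9160 none. Names follow the platform annotation, checked against RefSeq of GRCm38.p6 through 34741 Entrez identifiers. The brightest probe set represents a gene, and genes whose brightest probe set lay in the lowest 40% of probe sets by mean were left out. The 3 arrays labelled Rhau KO were compared with the 3 labelled wildtype using limma 3.58.1 (lmFit, eBayes with trend) in R 4.3.3, with Benjamini-Hochberg adjustment over all genes tested. Differences are labelled Rhau KO minus labelled wildtype, with SEs from limma. Arrays of one label were distinct, differing at 44993 or more of 45037 probe sets. The procedure was tested on simulated arrays.

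Members and lists were chosen with earlier results of these data known. Genes are named by rule: the 4 muscle members, every member past the test, 1 member of each class without a call, those next to the filter, and up to 4 genes of each other list; exceptions are said to be so, and members without a call are otherwise listed only as values. Alternatives covered pseudocounts of 1 and 64, normalization, filters, probe sets, test settings, a replicate block, each array left out and sex-linked signal. Probe sets not marked as shared, and marker sums without some markers, were added after seeing the data. Tables and plots used Python 3.11.15, pandas 2.3.3 and matplotlib 3.10.9.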

Additional observations from a re-analysis of the deposited data

How the results depend on the processing

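Decreases of TRIM members were steadier than increases. With 7 lower in all, the count was 2 with the Y-linked covariate and 6 or 7 when 1 array was left out. The members behind an equal count changed. Trim56 lost its call without replicate 1 labelled wildtype or replicate 2 labelled Rhau KO, yet 7 were lower in both fits. All 6 fits that leave out an array kept the call for 6 of the 11 members past the test. Probe sets not marked as shared gave 3 higher and 5 lower of 37 members tested. The 4 increases became 2 with quantile normalization, no filter or eBayes without trend, and 1 with median centring. With the lowest 60% left out they were also 2, because Trim12a and Trim62 lay below that filter and were not tested. Under limma they were 0 with averaged probe sets (2 at an unadjusted p under 0.05) and 0 with the covariate (0 at an unadjusted p under 0.05). Leaving out 1 array gave 0 to 3 increases, and 0 without replicate 1 or 3 labelled wildtype or replicate 2 labelled Rhau KO (5, 4 and 5 at an unadjusted p under 0.05). Trim54 stood at -1.61 with the covariate and Trim63 at -0.19, and at -0.26 on the arrays with both signals. With probe sets not marked as shared, chosen after seeing the data, Trim27 turned to -0.15 and Trim41 to 0.21, neither with a call, as these probe sets also did when tested on their own.

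Over all genes, 1018 higher and 1336 lower became 532 higher with median centring, 608 and 824 with averaged probe sets, 614 and 878 without trend, 46 and 132 with the covariate, and 298 and 448 on the arrays with both signals. Leaving out 1 array gave 590 to 802 higher and 916 to 1206 lower. The partner list's 1 increase and 6 decreases became 2 increases with the replicate block, 0 and 2 with the covariate (1 and 4 at an unadjusted p under 0.05) and 3 decreases on the arrays with both signals; 1 or 2 increases and 5 to 7 decreases remained without 1 array, 2 increases being those without replicate 2 labelled Rhau KO. Causes were not tested, beyond the fewer arrays of such fits. Same-numbered arrays had deviations that correlated at -0.01, 0.04 and 0.01, so no pairing by number was seen. Low correlations cannot exclude such a pairing. The replicate block left 4 higher and 7 lower members, and 955 and 1300 genes.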
